A study of Mus musculus with 6 samples.

Results

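Gadd45a, Btg2, Insm1, Mybl1, Sstr2, Penk and Rgs16 are 7 genes, of 27998 in the deposited matrix, that were listed by name as genes of the neurogenic transition in the embryonic mouse retina. The study sequenced single retinal cells at embryonic day 14 with 10x Genomics 3' chemistry, and 67050 cells in 6 libraries were used here. The libraries form 3 groups of 2: Bax null, Bax null with Atoh7 null (double null below), and Bax het with Atoh7 null. The titles of the Bax null group name no Atoh7 allele. Each cell carries a cell type from the authors: progenitor, neurogenic cell, ganglion cell, cone or horizontal cell. No group had both genes intact, since the Bax null group lacks Bax and the other groups lack Atoh7. The labels name no promoter or Cre driver for these alleles and do not say whether the replicates came from separate embryos, so p-values measure only the spread between these libraries.

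In the developing retina, dividing progenitors give rise to neurogenic cells, a short-lived state marked by proneural transcription factors and Notch ligands, from which ganglion cells, cones and horizontal cells emerge. Atoh7 is the proneural factor that most ganglion cells need to form, and Bax is a killer protein of the mitochondrial death pathway, so its loss keeps cells alive that would otherwise die. The listed genes fall into 3 roles. Gadd45a and Btg2 encode growth-arrest proteins that the tumour suppressor p53 can induce. Insm1 and Mybl1 encode transcription factors, a zinc-finger protein of newborn neurons and endocrine cells and a relative of the Myb oncoprotein. Sstr2, Penk and Rgs16 belong to signalling through G proteins, as a somatostatin receptor, the precursor of the enkephalin peptides and a protein that switches G proteins off.

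In the GENCODE vM21 annotation of GRCm38, all 7 are protein-coding genes. Gadd45a lies at chr6:67035096-67037457 on the minus strand, Btg2 at chr1:134075170-134079120 on the minus strand and Insm1 at chr2:146221921-146225020 on the plus strand. Mybl1 lies at chr1:9667415-9700209 on the minus strand and Sstr2 at chr11:113619342-113626028 on the plus strand. Penk lies at chr4:4133531-4138819 on the minus strand and Rgs16 at chr1:153740349-153745468 on the plus strand. Over the 6 libraries they held 91749 UMIs (Gadd45a), 46586 (Btg2), 21461 (Insm1), 9734 (Mybl1), 9132 (Sstr2), 4827 (Penk) and 3817 (Rgs16), where a UMI marks 1 captured RNA molecule.

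Promoter sequence from RefSeq (GRCm38.p6) was matched for 4 of the 7 genes, Gadd45a, Btg2, Sstr2 and Rgs16. The 250 bases before their starts held neither of the E-box letters CAGCTG and CATCTG, the letters that proneural factors are known to bind, on either strand. Of 32851 such windows, 25.5% held at least 1 of them (13% CAGCTG, 14.4% CATCTG). The letters TGACGTCA, the palindromic cAMP response element, were looked for after these windows had been seen. They stood in the windows of Btg2 and Sstr2 and in 508 of the 32851 windows (1.55%). Both windows are printed 5′ to 3′ along the gene, with that element in capitals, as the members of the list in which it was found.
Btg2, chr1:134079156-134079405, minus strand: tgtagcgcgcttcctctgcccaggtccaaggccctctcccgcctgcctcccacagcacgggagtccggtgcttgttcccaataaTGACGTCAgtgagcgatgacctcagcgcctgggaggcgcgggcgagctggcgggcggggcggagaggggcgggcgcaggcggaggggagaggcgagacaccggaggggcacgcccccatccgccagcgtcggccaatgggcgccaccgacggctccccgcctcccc
Sstr2, chr11:113619077-113619326, plus strand: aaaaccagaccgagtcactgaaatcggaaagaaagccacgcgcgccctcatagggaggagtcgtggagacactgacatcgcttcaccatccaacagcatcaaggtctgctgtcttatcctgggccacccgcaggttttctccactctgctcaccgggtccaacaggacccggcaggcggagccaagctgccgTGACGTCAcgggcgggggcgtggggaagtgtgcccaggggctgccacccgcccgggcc
A match is a run of letters, and no binding was measured in this study.

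The libraries held 22463515 to 66594431 UMIs. The Bax null libraries stood apart from the 4 Atoh7-null libraries, with medians of 5660.5 and 6804 UMIs per cell against 1634 to 2632, and with 3.80% and 3.90% mitochondrial UMIs against 1.06% to 1.15%. A list of 19 markers of blood, vessel, microglial, lens, pigment and mesenchymal cells summed to 676 to 1836 UMIs per 1000000 UMIs of a class (CPM) in the Bax null libraries and to 31.9 to 437 in the others. Atoh7 held 376 and 458 UMIs in the Bax null libraries and 0 in each Atoh7-null library. Bax stood at 144 and 108 CPM in Bax het, 17.1 and 14.99 in Bax null, and 47.7 and 11 in double null replicates 1 and 2, and the labels do not say which exons are deleted. Double null replicates 1 and 2 shared 2596 cell barcodes (17.6% and 22.0% of their cells, 89.4% with the same cell type in both), against 126 to 223 in the other 14 pairs of libraries. Results are therefore also given with these 5192 cells left out. Checked against markers, the mean level was highest in the labelled class for 7 of 7 progenitor, 5 of 7 neurogenic, 9 of 9 ganglion cell, 6 of 7 cone and 5 of 5 horizontal cell markers. The exceptions included Dll3, which was highest in cones, and the cone marker Rcvrn, at 0 throughout.

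Levels are given as CPM after TMM scaling over the 30 sums of 6 libraries and 5 classes (scaled CPM). Without that scaling, the median gene in the comparison of double null with Bax null moves up by 0.53 (horizontal cells) to 0.63 (progenitors) on the log2 scale, so a change in a class is read relative to the median gene there. Levels are not compared between genes, and because the classes were drawn from expression, differences between classes are described without a test.

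Each of the 7 genes stood above progenitors in neurogenic cells of every library. The scaled mean over 6 libraries was highest in neurogenic cells for all 7, but for 3 of them the first place turned with the scaling. In unscaled CPM, Btg2 was highest in cones (638 against 635 in neurogenic cells), Rgs16 in horizontal cells (43.5 against 42.1) and Insm1 in ganglion cells (246 against 242). By group, scaled Btg2 was higher in cones than in neurogenic cells of the Bax null libraries (599 and 640.5 against 405 and 354), and so was Insm1 (135 and 112 against 124 and 101). Within a library, the mean log2 ratio of neurogenic cells to progenitors (CPM, SD over 6 libraries) was 4.04 ± 0.25 for Gadd45a, 2.85 ± 0.52 for Btg2, 2.31 ± 0.20 for Insm1 and 3.42 ± 0.30 for Mybl1. Among the signalling genes it was 6.49 ± 0.55 for Sstr2, 5.71 ± 0.44 for Penk and 2.69 ± 0.35 for Rgs16. These span from a 4.95-fold mean ratio for Insm1 to an 89.6-fold ratio for Sstr2. Beyond the neurogenic class the genes parted. In mean ratios within a library, Insm1 and Rgs16 stayed nearest their neurogenic level in ganglion cells, and Btg2 and Rgs16 in cones. Penk, Sstr2, Mybl1 and Gadd45a were below their neurogenic level in both classes of every library.

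**Figure D1:**
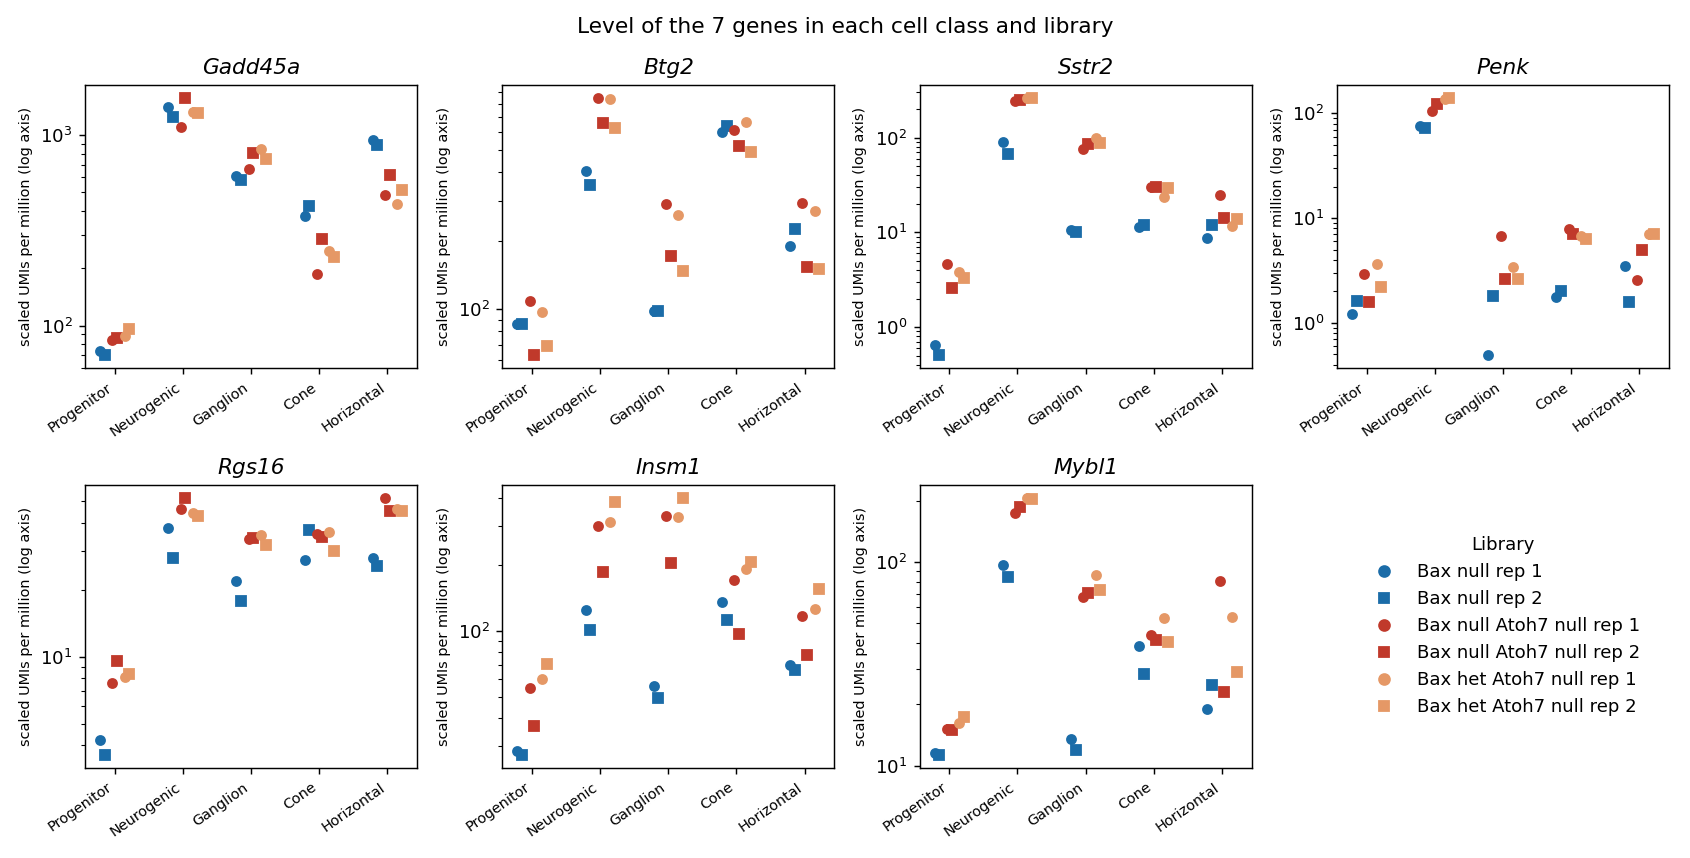
Level of each gene (scaled CPM, log axis) in the 5 cell classes, 1 point per library, coloured by genotype group. Penk stands at 72.4 to 141 in neurogenic cells and under 8 in every other class. Insm1 ranges more widely in ganglion cells (49.4 to 403) than in neurogenic cells (101 to 387).

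Gadd45a, whose product binds cell-cycle and DNA-repair proteins, stood at 1106 to 1568 scaled CPM in neurogenic cells (median 1318) and at 579 to 849.6 in ganglion cells (median 707). These ranges did not overlap. Ganglion cells (710 ± 109, mean ± SD, n = 6) and horizontal cells (648 ± 217) overlapped, cones followed at 291 ± 90.6 and progenitors at 82.8 ± 9.66, and neither of these last steps overlapped. Gadd45a therefore stayed at 0.542 of its neurogenic level in ganglion cells but at 0.237 in cones, as mean ratios within a library.

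Btg2 showed the opposite order of the neurons. Its cone level, 589 ± 68.0 scaled CPM, overlapped with its neurogenic level of 621 ± 209, and cones were the lower class in 4 of 6 libraries. Cones did not overlap with horizontal cells at 214 ± 59.3, which overlapped with ganglion cells at 178 ± 81.1. Progenitors, at 85.2 ± 17.2, were below ganglion cells in 6 of 6 libraries although the ranges over libraries overlapped.

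Insm1 stayed high in ganglion cells. Its mean level was 235 ± 115 in neurogenic cells, 228 ± 151 in ganglion cells, 152 ± 43.9 in cones, 102 ± 36.1 in horizontal cells and 46.3 ± 18.1 in progenitors, and every pair of neighbours in this order overlapped. Its ganglion cell level was above its neurogenic level in 4 of 6 libraries. These 4 were the Atoh7-null libraries, at log2 ratios of 0.07 to 0.20, while the Bax null libraries were at -1.11 and -1.01. Mybl1 stood at 158 ± 54.1 in neurogenic cells, 53.7 ± 32.4 in ganglion cells, 41.0 ± 8.12 in cones, 38.3 ± 24.1 in horizontal cells and 14.4 ± 2.47 in progenitors. Of these neighbours, horizontal cells and progenitors alone did not overlap. The order of Mybl1 in ganglion cells and cones turned by group: ganglion cells were below cones in both Bax null libraries (13.6 and 11.9 against 38.7 and 28.2) and above them in the 4 Atoh7-null libraries.

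Among the signalling genes, Sstr2 stood at 195 ± 91.2 scaled CPM in neurogenic cells, 61.4 ± 40.1 in ganglion cells, 22.8 ± 8.87 in cones, 14.2 ± 5.62 in horizontal cells and 2.58 ± 1.69 in progenitors. Neighbours overlapped down to horizontal cells, which did not overlap with progenitors. Here too ganglion cells were below cones in both Bax null libraries (10.6 and 10.1 against 11.4 and 12.1) and above them in the 4 Atoh7-null libraries. Penk was the most restricted to neurogenic cells in these ratios: 109 ± 30.4 there, against 5.30 ± 2.69 in cones, 4.46 ± 2.30 in horizontal cells, 2.95 ± 2.10 in ganglion cells and 2.20 ± 0.93 in progenitors. The neurogenic level did not overlap with any other, and the other 4 classes overlapped with their neighbours. Rgs16 overlapped over all 4 classes other than progenitors, at 41.9 ± 8.30 in neurogenic cells, 40.3 ± 10.8 in horizontal cells, 33.5 ± 4.02 in cones and 29.1 ± 7.44 in ganglion cells, and did not overlap with these in progenitors at 6.92 ± 2.42.

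How far the genes persisted was set beside the 225 genes at 20 CPM or more in neurogenic cells that were at least 2-fold above progenitors, a set that includes all 7. For the median gene of that set, the log2 ratio of the mean CPM over 6 libraries to that in neurogenic cells was 0.10 in ganglion cells and -0.01 in cones. As the mean of the ratios within the 6 libraries, the log2 ratio of ganglion cells to neurogenic cells was -5.41 ± 1.01 for Penk, -1.97 ± 0.70 for Sstr2, -1.83 ± 0.74 for Mybl1, -1.83 ± 0.21 for Btg2, -0.88 ± 0.22 for Gadd45a, -0.51 ± 0.17 for Rgs16 and -0.27 ± 0.61 for Insm1. In cones it was -4.23 ± 0.48 for Penk, -2.83 ± 0.38 for Sstr2, -2.08 ± 0.45 for Gadd45a, -1.72 ± 0.42 for Mybl1, -0.35 ± 0.56 for Insm1, -0.13 ± 0.40 for Rgs16 and 0.15 ± 0.61 for Btg2. By the ratio of means used for the set, Penk was at -5.09 and Insm1 at 0.02 in ganglion cells and Btg2 at 0.0075 in cones. By that ratio 0.444% of the set was lower than Penk and 46.2% lower than Insm1 in ganglion cells, and 50.2% lower than Btg2 in cones. For the other genes in ganglion cells it was 8.89% (Btg2), 10.7% (Sstr2), 12.9% (Mybl1), 22.2% (Gadd45a) and 30.7% (Rgs16). In cones it was 1.33% (Penk), 5.33% (Sstr2), 7.56% (Gadd45a), 11.1% (Mybl1), 36% (Insm1) and 45.8% (Rgs16).

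**Figure D2:**
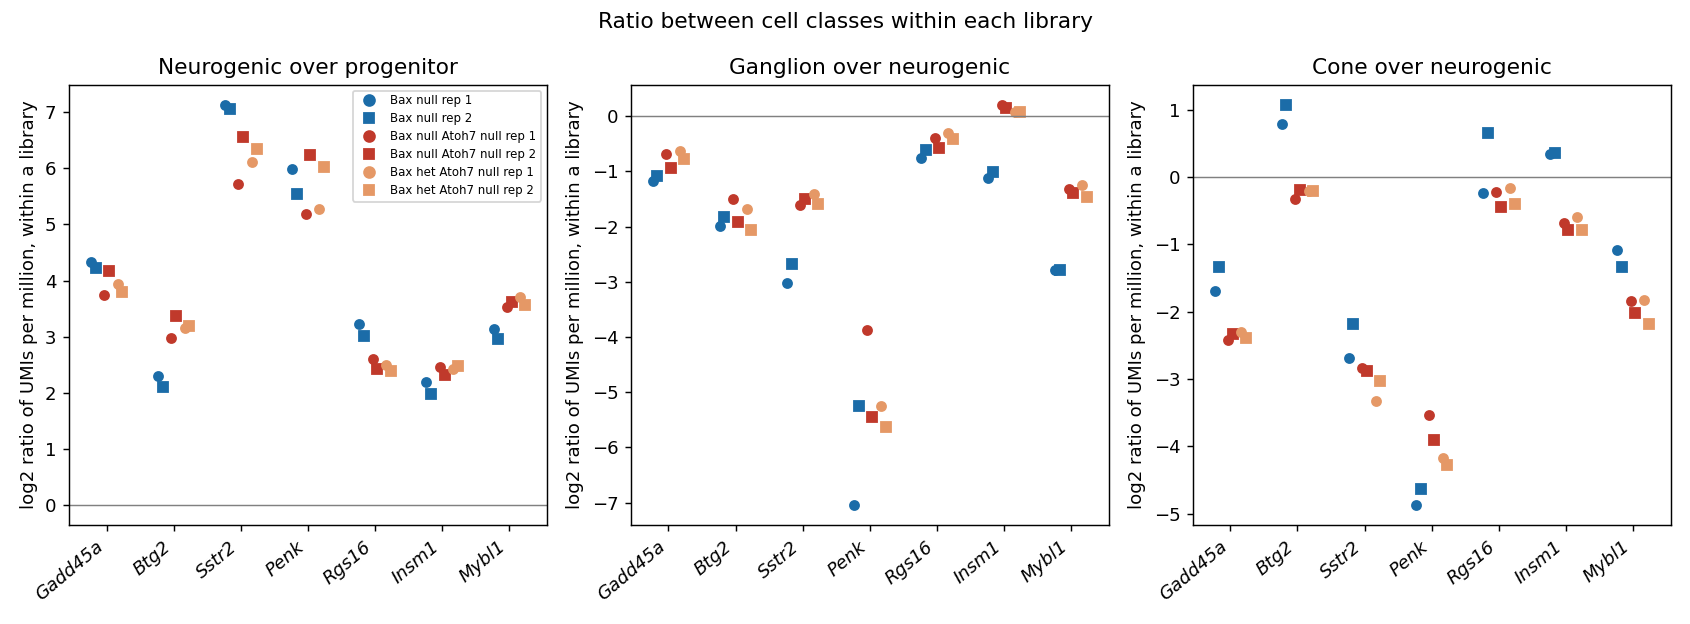
Log2 ratio of each gene's CPM between 2 classes of the same library, 1 point per library. Every gene is above 0 in the ratio of neurogenic cells to progenitors, and Insm1 in ganglion cells splits by group, with the Bax null libraries at -1.11 and -1.01 and the other 4 between 0.07 and 0.20.

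Double null libraries were compared with Bax null libraries, groups whose labels differ in Atoh7, within each class by edgeR's quasi-likelihood test with Benjamini-Hochberg adjustment over all genes tested, a gene being called at an adjusted p under 0.05. In this comparison many genes differed: 53.9% of genes tested in progenitors were called (26.8% higher, 27.1% lower), 47.3% in neurogenic cells (23.5% higher, 23.8% lower) and 52.7% in ganglion cells (26.2% higher, 26.5% lower). In cones 28.1% were called (12.5% higher, 15.6% lower) and in horizontal cells 29.2% (13.5% higher, 15.7% lower). Without TMM scaling the split moved to 8903 higher and 920 lower in progenitors, 7056 and 824 in neurogenic cells, 6440 and 981 in ganglion cells, 4161 and 488 in cones, and 3959 and 529 in horizontal cells. The groups differ in depth and mitochondrial share as given above, and the genotype cannot be told apart from that split of the libraries.

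Against that background, 6 of 7 listed genes rose in neurogenic cells without Atoh7, and 5 of the 6 that could be tested rose in ganglion cells, whereas in cones 2 rose and 1 fell of 7. In progenitors 5 of 7 rose, and in horizontal cells 2 rose and 1 fell of 6 tested, Penk being too low. The median log2 fold change over the listed genes was 0.72 in progenitors, 0.97 in neurogenic cells, 1.76 in ganglion cells, 0.08 in cones and 0.66 in horizontal cells, while the median of all genes tested lay between 0.00 and 0.04. With the shared barcodes left out, 4, 6, 6, 2 and 3 genes were called in these classes.

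Sstr2, which couples somatostatin to inhibitory G proteins, had the largest ganglion cell change of the 6 genes tested there. In neurogenic cells it stood at 89.0 and 66.4 scaled CPM in the Bax null libraries, 241 and 247 in the double null and 261 and 263 in the Bax het Atoh7 null libraries. Ganglion cells of the Bax null libraries held 10.6 and 10.1, against 76.3 and 86.4 in the double null and 98.0 and 86.7 in the Bax het Atoh7 null libraries. Both Bax null libraries were below all 4 Atoh7-null libraries in each class. The log2 fold change was 1.64 ± 0.13 (SE) in neurogenic cells (edgeR adjusted p = 1.32e-06) and 2.94 ± 0.13 in ganglion cells (edgeR adjusted p = 3.55e-09). Progenitors held only 0.65 and 0.51 in Bax null and 4.61 and 2.56 in double null libraries, a difference of 2.68 ± 0.34 (edgeR adjusted p = 0.000199) that rests on 18 and 14 UMIs in Bax null.

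Mybl1, the Myb-family factor, was also higher in these classes. Its neurogenic level was 96.9 and 84.0 in Bax null, 174 and 186 in double null and 207 and 203 in Bax het Atoh7 null libraries. The ganglion cell level was 13.6 and 11.9 in Bax null, 67.1 and 70.2 in double null and 86.4 and 73.1 in Bax het Atoh7 null libraries. Again the Bax null libraries did not overlap with the rest. Mybl1 rose by 0.98 ± 0.10 in neurogenic cells (edgeR adjusted p = 1.29e-05), by 2.40 ± 0.13 in ganglion cells (edgeR adjusted p = 2.60e-08) and by 0.41 ± 0.10 in progenitors (edgeR adjusted p = 0.0058). The progenitor call was lost without Bax null replicate 2 (0.39, edgeR adjusted p = 0.0523).

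Insm1, needed for progenitor divisions that yield neurons, stood at 124 and 101 in neurogenic cells of Bax null, 299 and 185 of double null and 314 and 387 of Bax het Atoh7 null libraries. In ganglion cells it was at 55.9 and 49.4 in Bax null, 331 and 202 in double null, and 328 and 403 in Bax het Atoh7 null libraries. The groups with and without Atoh7 did not overlap in either class. Insm1 rose by 1.09 ± 0.19 in neurogenic cells (edgeR adjusted p = 0.000634), 2.31 ± 0.19 in ganglion cells (edgeR adjusted p = 7.85e-07) and 0.74 ± 0.16 in progenitors (edgeR adjusted p = 0.00436). Without double null replicate 1, the higher library of its pair, the neurogenic change was 0.69 and the progenitor change 0.41.

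Btg2, which slows the cell cycle at divisions that make neurons, rose by 0.97 ± 0.16 in neurogenic cells (edgeR adjusted p = 0.000419), from 405 and 354 in Bax null to 851 and 656 in double null libraries. Bax het Atoh7 null libraries held 837 and 624. In ganglion cells it rose by 1.2 ± 0.23 (edgeR adjusted p = 0.000834), from 98.9 and 98.2 to 289.6 and 172, with 261 and 147 in Bax het Atoh7 null libraries. Double null replicate 1 was the higher of its pair in both classes, and the ganglion cell change was 0.78 without it. In progenitors the groups overlapped (86.6 and 86.5 in Bax null, 109 and 63.0 in double null), and Btg2 was called lower (-0.45, edgeR adjusted p = 0.0469) without double null replicate 1.

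Gadd45a was the gene of the 7 that did not rise in neurogenic cells. It stood there at 1410 and 1243 in Bax null, 1106 and 1568 in double null and 1328 and 1308 in Bax het Atoh7 null libraries, so that both Bax null libraries lay inside the range of the double null pair. The log2 fold change was -0.00 ± 0.16 (edgeR adjusted p = 0.987), and it was 0.60 without TMM scaling and -0.29 (edgeR adjusted p = 0.0182) without double null replicate 2. In ganglion cells the value was 0.27 ± 0.12 (edgeR adjusted p = 0.0799), from 611 and 579 in Bax null to 662 and 804 in double null libraries. These pairs did not overlap, and the difference was called with the shared barcodes left out (0.43, edgeR adjusted p = 0.0373) and without double null replicate 1 (0.41). In progenitors Gadd45a rose by 0.26 ± 0.08 (edgeR adjusted p = 0.0215), and that call was lost without either Bax null library and with the shared barcodes left out (edgeR adjusted p = 0.0579).

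The enkephalin precursor Penk stood in neurogenic cells at 75.1 and 72.4 in Bax null, 105 and 123 in double null and 139 and 141 in Bax het Atoh7 null libraries, and rose by 0.61 ± 0.10 (edgeR adjusted p = 0.000479), or by 0.40 with putative doublets left out. In ganglion cells it had 4 to 19 UMIs per library and did not pass the filter on low counts. Rgs16 rose by 0.57 ± 0.14 in neurogenic cells (edgeR adjusted p = 0.00607), from 37.9 and 27.7 to 46.1 and 52.0, and by 0.75 ± 0.15 in ganglion cells (edgeR adjusted p = 0.00095), from 21.8 and 17.7 to 33.7 and 34.2. Without Bax null replicate 2, the neurogenic change of Rgs16 was 0.35 and not called (edgeR adjusted p = 0.0963). In progenitors Rgs16 rose by 1.13 ± 0.16 (edgeR adjusted p = 0.000351), from 4.22 and 3.61 to 7.65 and 9.57, whereas Penk was not called there (0.72 ± 0.35, edgeR adjusted p = 0.114).

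In cones the genes were divided. Gadd45a stood at 375 and 422 in Bax null, 187 and 283 in double null and 248 and 229 in Bax het Atoh7 null libraries, and fell by 0.84 ± 0.16 on the log2 scale (edgeR adjusted p = 0.00041). The fall was 0.55 without double null replicate 1, and without TMM scaling the value was -0.28 and not called (edgeR adjusted p = 0.161). Sstr2 rose by 1.30 ± 0.30 (edgeR adjusted p = 0.0027), from 11.4 and 12.1 to 30.3 and 29.99. Penk was called higher (1.90 ± 0.66, edgeR adjusted p = 0.0364) on 2 UMIs in each Bax null library against 13 and 8 in the double null, and it was not called once any 1 of these 4 libraries was left out. Btg2, Insm1, Mybl1 and Rgs16 were not called, at -0.18 ± 0.15, 0.08 ± 0.19, 0.28 ± 0.23 and 0.08 ± 0.24. Cone levels of Btg2 overlapped between the groups (599 and 640.5 in Bax null, 615 and 520.4 in double null), and its difference was 0.37 without TMM scaling. Insm1 was called higher without double null replicate 2 (0.39, edgeR adjusted p = 0.0444).

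In horizontal cells Gadd45a fell by 0.76 ± 0.14 (edgeR adjusted p = 0.000419), from 941 and 892 in Bax null to 486 and 620 in double null libraries, and the value was -0.22 and not called without TMM scaling (edgeR adjusted p = 0.201). Rgs16 rose by 0.83 ± 0.22 (edgeR adjusted p = 0.00701), from 27.7 and 25.6 to 51.6 and 45.1. Mybl1 was called higher (1.25 ± 0.41, edgeR adjusted p = 0.0251), but its double null libraries stood at 80.8 and 23.0 and overlapped with the Bax null libraries at 19.0 and 24.8. Rgs16 and Mybl1 were not called without Bax null replicate 2 (edgeR adjusted p = 0.0645 and 0.0687) nor by DESeq2 (adjusted p = 0.127 and 0.361). Without double null replicate 2, 6 genes were called.

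**Figure D3:**
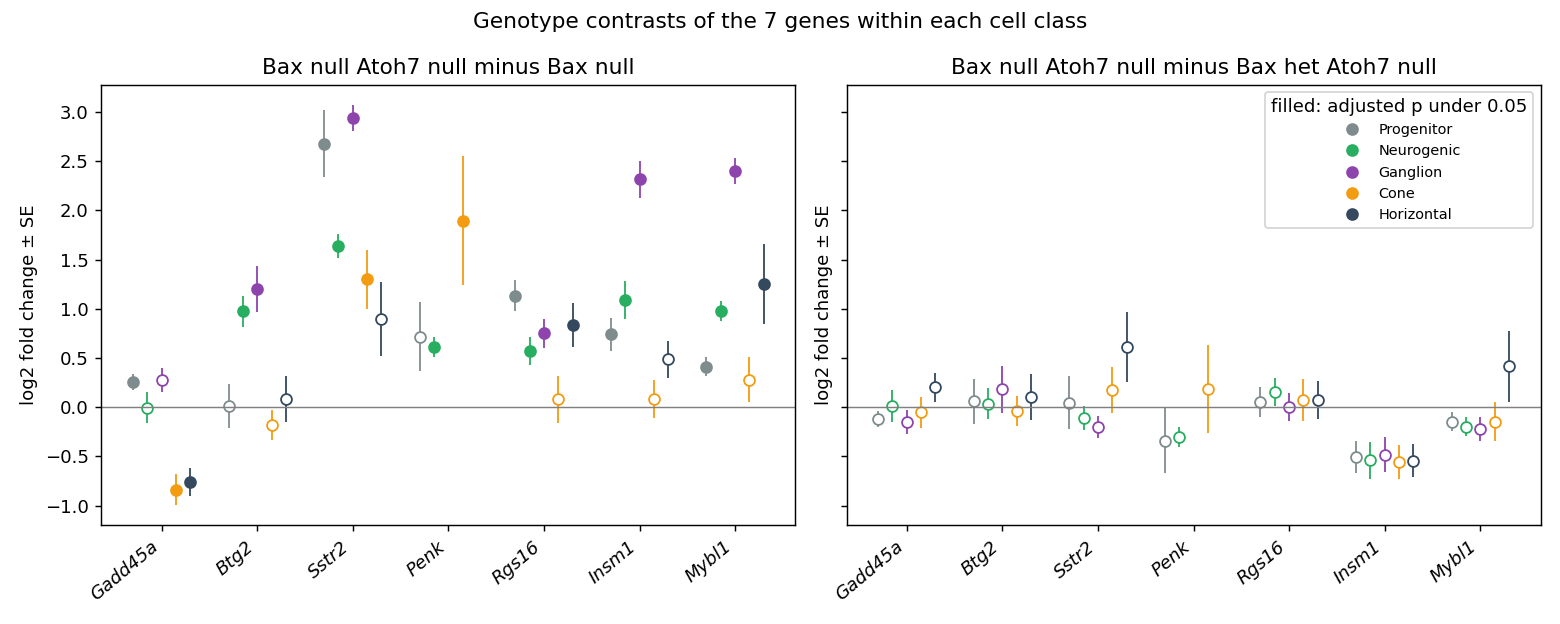
Log2 fold change ± SE of each gene within each cell class, for double null minus Bax null (left) and double null minus Bax het Atoh7 null (right), with filled points where the edgeR adjusted p is under 0.05. On the left, ganglion cells reach 2.94 for Sstr2 while Gadd45a is at -0.84 in cones (-0.28 without TMM scaling), and on the right no point is filled.

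Whether the loss of Atoh7 went with a different step between classes was tested within libraries, where a factor that scales a gene in all cells of a library cancels. In the step from progenitor to neurogenic cell, 6.42% of 12180 genes were called (3.73% higher, 2.69% lower), in that from neurogenic to ganglion cell 16.4% (7.78% higher, 8.65% lower) and in that from neurogenic cell to cone 5.59% (2.78% higher, 2.81% lower). Without TMM scaling the first split was 233 higher and 512 lower in place of 454 and 328, and the last 240 and 514 in place of 339 and 342. Of the listed genes, 3 were called higher and 2 lower in the first step, 4 higher in the second and 3 lower in the third, with median log2 differences of -0.11, 1.23 and -0.65 against 0.04, 0.02 and 0.07 over all genes.

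From neurogenic to ganglion cell, 4 genes were kept to a greater degree in the double null libraries than in the Bax null libraries. Mybl1 had a log2 ratio of -2.79 and -2.79 in Bax null and -1.32 and -1.39 in double null libraries, a difference of 1.44 ± 0.19 (edgeR adjusted p = 4.69e-08). Insm1 went from -1.11 and -1.01 to 0.20 and 0.15, a difference of 1.23 ± 0.09 (edgeR adjusted p = 1.92e-16). For Sstr2 the ratios were -3.02 and -2.68 against -1.6 and -1.5, a difference of 1.31 ± 0.16 (edgeR adjusted p = 5.30e-09). Gadd45a had the smallest called difference, 0.30 ± 0.08 (edgeR adjusted p = 0.00868), from -1.17 and -1.08 to -0.69 and -0.95. The Gadd45a call was lost without Bax null replicate 1 (0.25, edgeR adjusted p = 0.0815) and without double null replicate 1 (0.19, edgeR adjusted p = 0.0826), and the difference was 0.52 with putative doublets left out. Btg2 (0.22, edgeR adjusted p = 0.221), Rgs16 (0.20, edgeR adjusted p = 0.501) and Penk (1.39 ± 0.51, edgeR adjusted p = 0.0529) were not called. Btg2 was called without double null replicate 2 (0.39) and with putative doublets left out (0.41, edgeR adjusted p = 0.0153). Penk was called without Bax null replicate 2 (2.62) and without double null replicate 2 (2.01).

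Beside these results, most markers of earlier and dividing cells were called higher in ganglion cells of double null than of Bax null libraries. Most progenitor markers were also higher in cones. Within ganglion cells, 6 of 7 progenitor markers were called higher and 1 lower. Of 19 genes of G2 phase and mitosis tested there, 16 were higher and 2 lower, against 26.2% and 26.5% of all genes. The marker sums that follow are CPM without TMM scaling. In ganglion cells of the Atoh7-null libraries the 7 progenitor markers summed to 1043 to 1355, against 481 and 317 in Bax null libraries. The 7 neurogenic markers summed to 847 to 1029, against 508 and 505. None of these markers other than Atoh7 was at 0 in ganglion cells. In cones the progenitor markers summed to 1062 to 1436 CPM in the Atoh7-null libraries and to 533 and 582 in the Bax null libraries. From neurogenic to ganglion cell, 7 of 7 progenitor markers were called higher in double null than in Bax null libraries (median 1.63) and 19 of 20 genes of G2 phase and mitosis (median 1.41). From neurogenic cell to cone, 6 of 7 (median 1.60) and 8 of 20 (median 1.22) were called higher. Their part in the steps of the listed genes was not tested. In bulk sums of a class, more cells of an early kind and more RNA per cell cannot be told apart.

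From neurogenic cell to cone, 3 genes had a lower ratio in the double null libraries, in all settings tried. Within cones only Gadd45a of these was called lower. Mean scaled CPM of Btg2 in Bax null and double null libraries was 620 and 568 in cones, against 379 and 753 in neurogenic cells. For Insm1 it was 123 and 133 in cones, against 113 and 242 in neurogenic cells. Btg2 had log2 ratios of 0.79 and 1.07 in Bax null and -0.33 and -0.20 in double null libraries. Its cone level was thus above its neurogenic level in Bax null libraries and below it in double null libraries. The difference in the ratio was -1.13 ± 0.12 (edgeR adjusted p = 2.56e-10). Insm1 turned in the same direction, from 0.35 and 0.36 to -0.68 and -0.79, a difference of -0.99 ± 0.13 (edgeR adjusted p = 7.71e-08). Gadd45a went from -1.69 and -1.34 to -2.42 and -2.33, a difference of -0.79 ± 0.12 (edgeR adjusted p = 4.05e-06). Mybl1 (-0.65), Rgs16 (-0.42), Sstr2 (-0.28) and Penk (1.38) were not called.

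From progenitor to neurogenic cell, Btg2 had log2 ratios of 2.29 and 2.11 in Bax null and 2.97 and 3.37 in double null libraries, a difference of 1.02 ± 0.10 (edgeR adjusted p = 9.40e-11). Mybl1 (0.59 ± 0.15, edgeR adjusted p = 0.00817) and Insm1 (0.39 ± 0.08, edgeR adjusted p = 0.00125) were called in the same direction, and both calls were lost without Bax null replicate 2 (0.46 and 0.23), that of Mybl1 also with putative doublets left out (0.49). Sstr2 had ratios of 7.13 and 7.06 in Bax null and 5.71 and 6.56 in double null libraries, a difference of -1.01 ± 0.28 (edgeR adjusted p = 0.0193). Rgs16 was also lower, at -0.53 ± 0.16 (edgeR adjusted p = 0.0295). The Sstr2 call was lost with the shared barcodes left out (-0.95, edgeR adjusted p = 0.100), without either Bax null library and without double null replicate 1 (-0.44). That of Rgs16 was lost with the shared barcodes left out (-0.49) and without Bax null replicate 1 or either double null library. Gadd45a (-0.26, edgeR adjusted p = 0.0645) and Penk (-0.11) were not called, although Gadd45a was without Bax null replicate 2 (-0.37) or double null replicate 2 (-0.48).

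Double null libraries were also compared with Bax het Atoh7 null libraries, groups whose labels differ in Bax. Few genes were called: 2.01% in progenitors, 1.77% in neurogenic cells, 2.34% in ganglion cells, 1.46% in cones and 1.61% in horizontal cells, and for the 3 steps in the order above 0%, 0.0246% and 0.00821%. None of the 7 genes was called in any class or step by edgeR. In the classes, none of those given an adjusted p was called by DESeq2, which was not run on the steps. At 0.05 before adjustment, edgeR had Insm1 in each of the 5 classes, Penk in neurogenic cells and 0 of the 7 in the steps. DESeq2 likewise had Insm1 in the 5 classes and Penk in neurogenic cells at that level.

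Insm1 had lower means in double null than in Bax het Atoh7 null libraries in every class, with no call after adjustment. Both double null libraries were below both Bax het Atoh7 null libraries in 4 of 5 classes, and the groups overlapped in ganglion cells. The log2 difference was -0.50 ± 0.16 in progenitors, -0.54 ± 0.19 in neurogenic cells, -0.48 ± 0.18 in ganglion cells, -0.55 ± 0.17 in cones and -0.54 ± 0.17 in horizontal cells (edgeR adjusted p = 0.171 to 0.254). The double null libraries differed from each other: Insm1 stood at 299 and 185 in their neurogenic cells, against 314 and 387 in Bax het Atoh7 null. Without the library labelled double null replicate 1, the one with Bax at 47.7 CPM, the differences were -0.83, -0.95, -0.88, -1.04 and -0.88 and all were called. Without double null replicate 2 they lay between -0.29 and -0.18 and were not called. Over the other 6 genes, the differences in neurogenic cells lay between -0.31 (Penk) and 0.15 (Rgs16).

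Persistence was then followed inside the neuron classes. Ganglion cells of each library were ordered by the summed CPM of 9 late ganglion cell genes, such as Sncg and the neurofilament genes Nefl and Nefm, and divided into 3 equal parts by rank. The parts are ranges of a score, and levels in them are CPM without TMM scaling. Gadd45a, Btg2, Mybl1, Sstr2 and Rgs16 declined from part to part in all 6 libraries, whereas Insm1 declined stepwise in 1 of 6 (4 of 6 with putative doublets left out). The mean log2 ratio of the lowest to the highest part was 4.45 ± 0.52 for Sstr2, 3.30 ± 1.02 for Rgs16, 2.87 ± 1.10 for Gadd45a, 2.83 ± 0.35 for Mybl1, 2.43 ± 0.72 for Btg2, 1.49 ± 0.67 for Penk and 0.54 ± 0.41 for Insm1.

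Insm1 showed how far a gene could be kept. In CPM of the part, its lowest part held 50.1 and 40.2 in Bax null, 396 and 243 in double null and 379 and 471 in Bax het Atoh7 null libraries. The highest part still held 21.1 and 21.5 in Bax null, 306 and 221 in double null and 321 and 356 in Bax het Atoh7 null libraries. The Atoh7-null libraries were above the Bax null libraries in every part, the cells richest in late ganglion cell genes included.

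Gadd45a showed a different arrangement over the same parts. In unscaled CPM its lowest part was at 1285 and 1232 in Bax null, 1222 and 1687 in double null and 1503 and 1420 in Bax het Atoh7 null libraries. In the highest part it was at 61.4 and 66.3 in Bax null, 258 and 372 in double null, and 378 and 294 in Bax het Atoh7 null libraries. In these unscaled CPM the groups overlapped in the lowest part and did not in the highest. Such levels hold the shift of the median gene between double null and Bax null libraries, 0.61 on the log2 scale in ganglion cells. Whether the groups overlap in the lowest part with that shift removed was not tested. Sstr2 went from 23.8 and 24.96 to 0 and 0.23 in Bax null libraries, where 0 UMIs were counted in replicate 1, and from 171 and 262 to 4.89 and 7.25 in the double null. Btg2 went from 160 and 167 to 18.4 and 15.8 in Bax null and from 519 and 362 to 172 and 93.0 in double null libraries.

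The late ganglion cell genes themselves were spread differently over the parts. Their median sum per cell was 1606 and 1695 CPM in the lowest part of the Bax null libraries and 3096 to 4007 in the Atoh7-null libraries, and in the highest part 21099 and 21187 against 15209 to 19252. Parts of equal rank are thus not cells of equal score across groups, and how much of the group differences this carries was not tested.

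**Figure D4:**
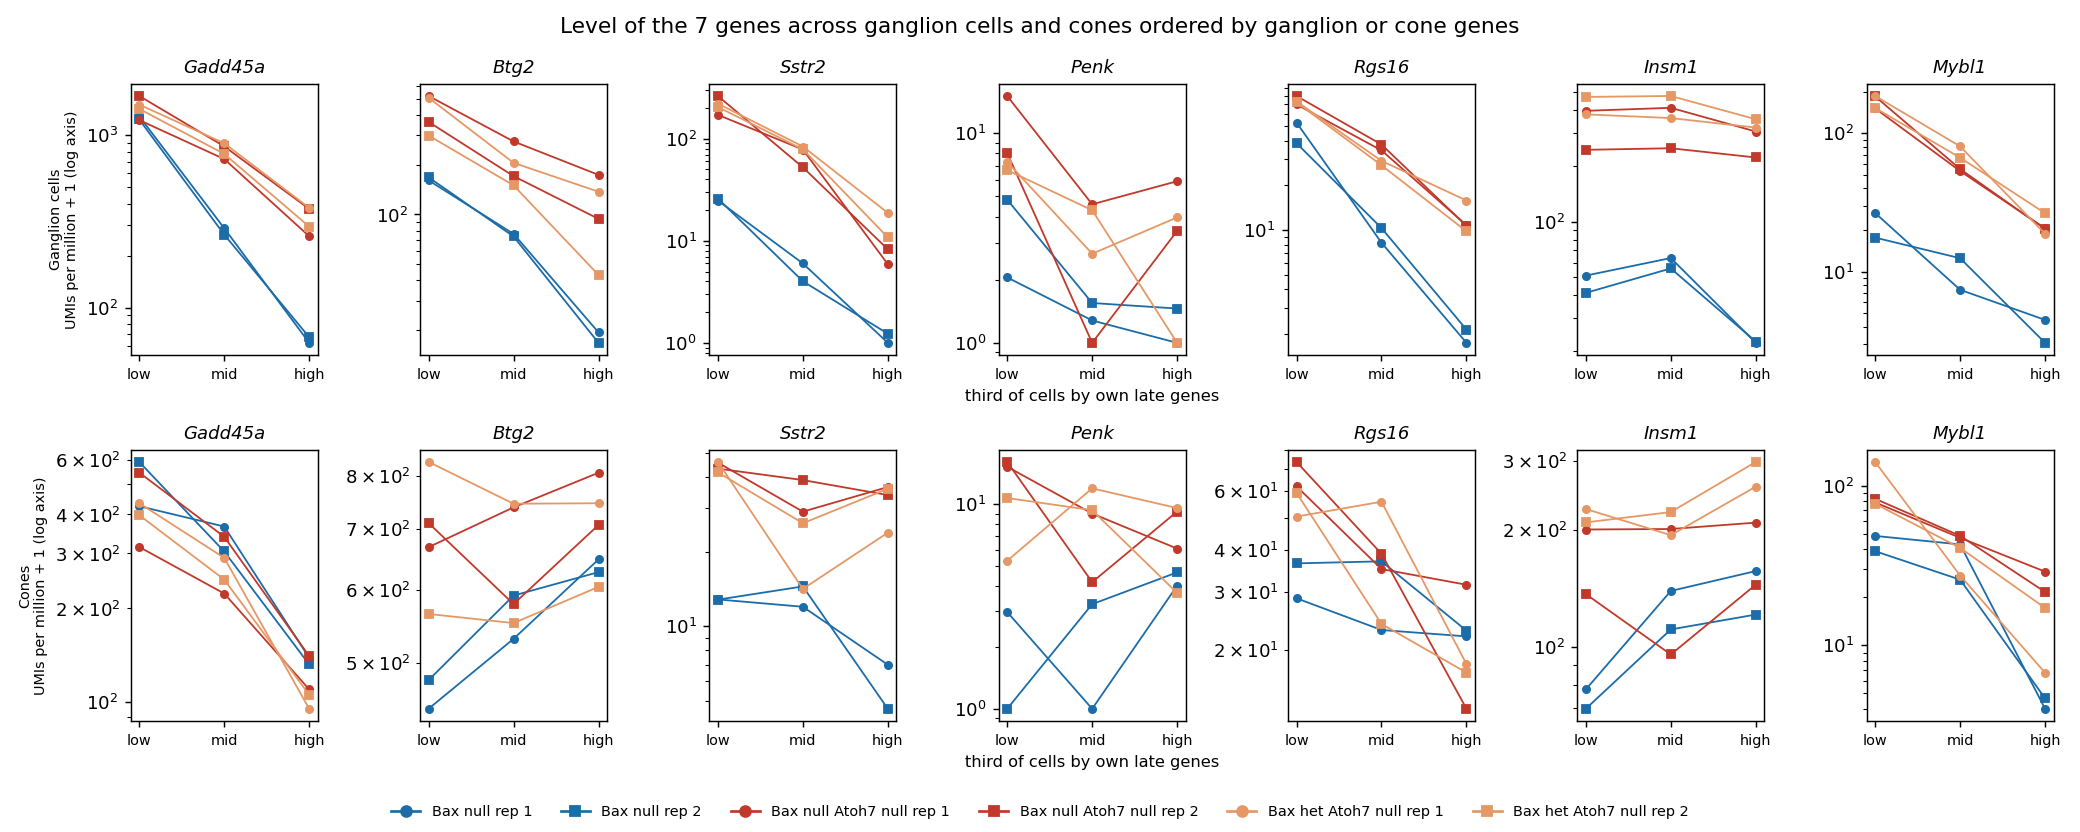
CPM (log axis) of each gene in 3 equal parts of the ganglion cells (ordered by late ganglion cell genes) and of the cones (ordered by cone genes), 1 line per library coloured by group. In ganglion cells Sstr2 has a mean log2 ratio of 4.45 from the lowest to the highest part and Insm1 one of 0.54, and in cones Btg2 is level (-0.19) while Gadd45a declines (1.89).

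Cones were ordered in the same way by 8 cone genes, among them Crx, Thrb and Rxrg. Gadd45a and Mybl1 declined from part to part in 6 of 6 libraries and Rgs16 in 4 of 6, with mean log2 ratios of lowest to highest part of 1.89 ± 0.28, 2.77 ± 1.11 and 1.29 ± 0.77. Gadd45a held 314 to 588 CPM in the lowest part and 94.4 to 140.1 in the highest. Btg2 did not decline: it held 444 to 829 in the lowest part and 604 to 806 in the highest, a log2 ratio of -0.19 ± 0.26. Insm1 was higher in the highest than in the lowest part in 6 of 6 libraries, at -0.44 ± 0.40. With putative doublets left out its ratio was -0.33 ± 0.47 and was above 0 in 2 of 6 libraries. As means over libraries, Btg2 and Insm1 were thus present at least as much in the cones richest in cone genes as in the poorest. Sstr2 stood between, at 0.70 ± 0.48, and Penk had too few UMIs to order the parts.

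Neurogenic cells were split by their UMIs of cell division genes. Cells of 1000 UMIs or more were thinned to 1000 UMIs and divided by whether they kept at least 2 UMIs of 20 genes of G2 phase and mitosis. That split does not isolate dividing cells: 82.2% and 81.7% of neurogenic cells were above it in Bax null and 64.7% to 67.9% in the Atoh7-null libraries, against 8.67% to 17.8% of ganglion cells. Penk was higher in the cells with these UMIs: it held 63.0 and 61.0 CPM there against 19.8 and 17.0 in the rest in Bax null libraries, 141 and 187 against 34.2 and 42.5 in double null libraries, and 191 and 191 against 33.0 and 36.7 in Bax het Atoh7 null libraries. The mean log2 ratio was 2.06 ± 0.33 for Penk, 1.0 ± 0.17 for Sstr2, 0.69 ± 0.19 for Insm1 and 0.31 ± 0.07 for Mybl1, each above 0 in 6 of 6 libraries. Rgs16 was higher in the other cells, at -0.83 ± 0.17 and below 0 in 6 of 6 libraries, while Gadd45a (-0.03 ± 0.09) and Btg2 (-0.03 ± 0.16) were level. A split at 5 UMIs was chosen after seeing the data. It was passed by 65.2% and 64.2% of cells in Bax null and 47.5% to 49.4% in the Atoh7-null libraries. With it, Penk was at 1.75 ± 0.27, Sstr2 at 1.02 ± 0.26 and Rgs16 at -0.77 ± 0.23. Gadd45a, at 0.09 ± 0.06, and Btg2, at 0.11 ± 0.08, were then each above 0 in 5 of 6 libraries. Cells with mitotic UMIs were also deeper before thinning, with medians of 6162.5 against 4631 UMIs in Bax null replicate 1 and of 2051 against 1687 in double null replicate 1. The part of that depth in the ratios was not tested.

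**Figure D5:**
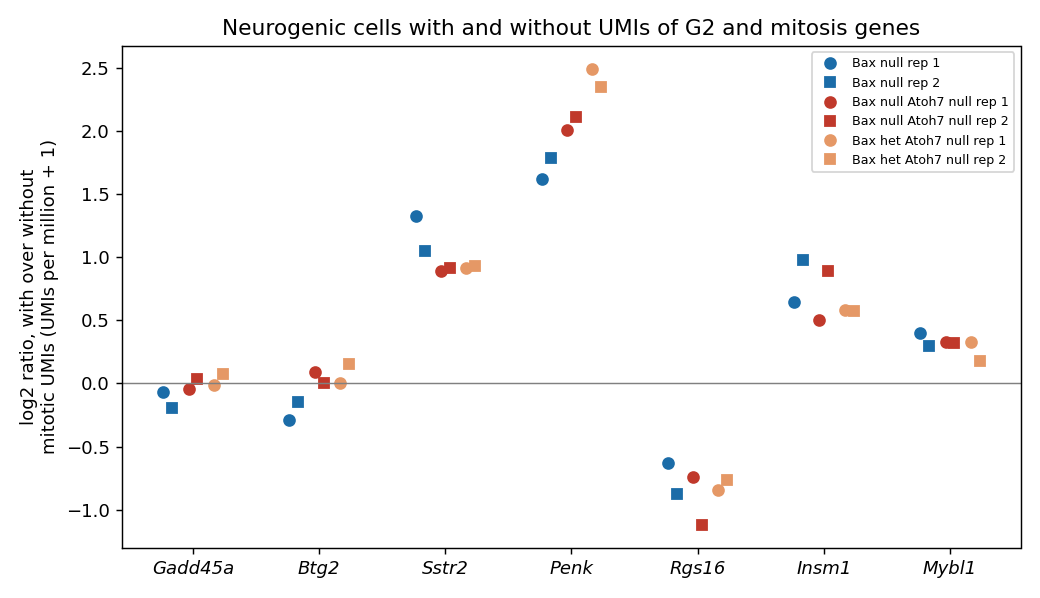
Log2 ratio of CPM between neurogenic cells with and without at least 2 UMIs of G2 and mitosis genes, 1 point per library. Penk is highest with a mean of 2.06, Gadd45a and Btg2 lie near 0, and Rgs16 is below 0 in every library with a mean of -0.83.

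The number of listed genes detected in a single cell was counted. Whether they shared cells more often than independent detection would give was not tested. Thinning to a fixed depth does not remove the shift of the median gene without TMM scaling, 0.59 on the log2 scale in neurogenic cells between double null and Bax null libraries. The part of that shift in the differences between groups below was not tested. At 1000 UMIs per cell, at least 1 of the 7 was detected in 75.0% and 66.5% of neurogenic cells in Bax null libraries and in 88.9% to 91.0% in the Atoh7-null libraries. At least 3 were detected in 10.1% and 9.50%, against 31.8% to 36.5%. In ganglion cells at least 1 was detected in 40.4% and 37.4% in Bax null and in 66.1% to 70.3% in Atoh7-null libraries, and in progenitors in 13.3% to 24.0% over all libraries.

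Insm1 alone was detected in 4.37% and 3.08% of ganglion cells in Bax null, 30.4% and 21.9% in double null and 32.2% and 33.9% in Bax het Atoh7 null libraries at 1000 UMIs. Between groups, these shares too hold the shift of the median gene. Progenitors, at the same depth, had 2.18% and 2.08%, 6.04% and 4.24%, and 5.89% and 7.40%. The ganglion cell shares were above those of progenitors in every library. Without thinning they were 19.8% and 20.8% in Bax null, 48.5% and 34.9% in double null and 57.4% and 63.1% in Bax het Atoh7 null libraries, at medians of 5578 and 6683, 1954 and 1833.5, and 2624 and 2434.5 UMIs per ganglion cell. Penk was detected in 0.06% to 0.75% of ganglion cells and in 0.05% to 0.36% of progenitors after thinning, against 6.07% to 12.1% of neurogenic cells. Its shares in ganglion cells and progenitors overlap, and whether these UMIs come from free RNA in the droplets was not tested.

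The authors divided the neurogenic class of these libraries further. Of its clusters, 26 held at least 100 cells, with at least 20 cells in each of at least 3 libraries. Other clusters were left out, and levels are means over the libraries with at least 20 cells. Across them the level of Gadd45a ranged from 376 to 2232 CPM, Btg2 from 286 to 1169, Insm1 from 43.1 to 729, Mybl1 from 41.7 to 423, Sstr2 from 17.8 to 783, Penk from 8.91 to 482 and Rgs16 from 12.6 to 102. As a description over 26 clusters that share libraries, the log2 levels of Btg2 and Sstr2 had a Pearson r of 0.93, Insm1 and Mybl1 0.93, Gadd45a and Btg2 0.91, and Gadd45a and Sstr2 0.90. Rgs16 stood apart, with r from 0.06 (Penk) to 0.51 (Gadd45a). Among the 10 ganglion cell clusters kept by the same rule, Gadd45a ranged from 65.9 to 1818 and Sstr2 from 0 to 298. Btg2 varied little among the 5 cone clusters so kept (572 to 743).

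Over the 30 sums of library and class, the genes most like each listed gene among 7200 compared were named by Pearson r of log2 levels, in CPM without TMM scaling. Such levels hold the shift of 0.53 to 0.63 between double null and Bax null libraries. The part of that shift in r was not tested. Gadd45a was nearest to Hnrnph3 (0.97), Abracl (0.93) and Yrdc (0.92), and Btg2 to Zbtb18 (0.96), Fgd4 (0.92) and the Notch ligand gene Dll3 (0.91). Sstr2 was nearest to Bhlhe22 (0.97), Mybl1 (0.94) and Pkib (0.94), and Mybl1 to Sstr2 (0.94), Sdccag8 (0.92) and Pkib (0.91). Penk was nearest to Rbpj (0.93), which encodes the DNA-binding partner of Notch, and to Olig2 (0.93) and Hes6 (0.92). Rgs16 was nearest to Srrm4 (0.96), a neural splicing regulator, Abcd2 (0.95) and Serping1 (0.94), and Insm1 to Frrs1l (0.92), Igsf8 (0.92) and Magi1 (0.90).

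The surrounding pathway was taken from a list of 32 genes of Notch signalling, proneural factors and cell-cycle exit. In double null against Bax null libraries, 19 rose and 5 fell of 32 in neurogenic cells (median 0.42), 19 rose and 4 fell of 32 in ganglion cells (median 0.67), and 8 rose and 6 fell of 30 in cones (median 0.13). Of all genes tested, 23.5% rose and 23.8% fell in neurogenic cells, 26.2% and 26.5% in ganglion cells, and 12.5% and 15.6% in cones. In neurogenic cells Olig2, a bHLH factor of neurogenic progenitors, rose by 1.71 ± 0.12 (edgeR adjusted p = 7.08e-07), Srrm4 by 1.44 ± 0.11 (edgeR adjusted p = 1.06e-06) and the neuronal factor Sox4 by 1.38 ± 0.13 (edgeR adjusted p = 7.58e-06). The Notch target Hes1 fell by 3.88 ± 0.15 on the log2 scale (edgeR adjusted p = 3.96e-09) and Btg1, the paralogue of Btg2, by 1.19 ± 0.11 (edgeR adjusted p = 7.68e-06), while Atoh7 itself was at 0. These differences were not confined to neurogenic cells: mean Sox4 and Srrm4 were also higher, and Hes1 and Btg1 lower, in each other class. With TMM scaling within a class, mean Hes1 was 2130 in Bax null and 220 in double null progenitors, and 159 and 37.1 in cones. Mean Sox4 was 144 and 384 in progenitors and 772 and 1662 in cones. Against Bax het Atoh7 null libraries the proneural gene Neurod4 alone of the 32 was called in neurogenic cells (-0.76 ± 0.16, edgeR adjusted p = 0.0385). In the step from neurogenic to ganglion cell 16 of the 32 were called higher and 6 lower (median 0.49), and in the step to cones 7 higher and 8 lower (median -0.22).

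Stress genes were counted in the same comparisons. Beside them, the shares of all genes in double null against Bax null libraries were 26.2% higher and 26.5% lower in ganglion cells. They were 23.5% and 23.8% in neurogenic cells and 12.5% and 15.6% in cones. Of 10 genes of the integrated stress response, which lowers translation and induces Atf4 targets, 9 rose and 0 fell in ganglion cells of double null against Bax null libraries (median 2.19), and 0 rose and 4 fell in cones (median -0.46). Their step from neurogenic to ganglion cell was called higher for 9 (median 1.54) and that to cones lower for 4 (median -0.86). Of the p53 target genes, 6 rose and 2 fell of 13 tested in ganglion cells (median 0.49) and 4 rose and 5 fell of 12 in neurogenic cells (median 0.14). Of the immediate early genes, which tissue dissociation can also induce, 5 rose and 3 fell of 14 in ganglion cells (median 0.34) and 4 rose and 5 fell of 14 in neurogenic cells (median -0.06). Against Bax het Atoh7 null libraries, 5 of 10 stress response genes and 3 of 13 p53 targets rose in ganglion cells. There, 2.34% of all genes tested were called in either direction. The part of these responses in the levels of Gadd45a, Btg2 or the other genes was not tested.

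Paralogues did not simply follow the listed genes. Of 26 related genes, 15 could be tested in neurogenic cells (5 rose, 3 fell in double null against Bax null libraries), 16 in ganglion cells (7 rose, 7 fell) and 11 in cones (4 rose, 2 fell). Of all genes tested, 23.5% rose and 23.8% fell in neurogenic cells, 26.2% and 26.5% in ganglion cells, and 12.5% and 15.6% in cones. Gadd45g, with a mean of 264 CPM in neurogenic cells, 194 in ganglion cells and 221 in cones, rose by 2.22 ± 0.11 in ganglion cells (edgeR adjusted p = 5.57e-09), where Gadd45a was not called, and fell by 0.60 in cones (edgeR adjusted p = 0.0027). Insm2 moved the other way from Insm1 in ganglion cells, at -0.87 ± 0.14 (edgeR adjusted p = 0.000184), and was called higher in cones (1.19, edgeR adjusted p = 0.016). Btg1 was lower in neurogenic, ganglion cell and cone classes, at -1.19, -0.77 and -0.83, where Btg2 was higher or not called. Myb, the relative of Mybl1, was highest in progenitors (129 CPM, against 98.5 in neurogenic cells and 22.4 in ganglion cells) and rose by 0.95 in neurogenic and 2.04 in ganglion cells. Sst, which encodes the ligand of Sstr2, had a mean of 83.0 CPM in ganglion cells and at most 1.63 elsewhere, and fell by 2.10 ± 0.14 on the log2 scale in ganglion cells (edgeR adjusted p = 1.12e-07), the class in which its receptor gene rose.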

How the data were processed

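The authors deposited 1 matrix of UMI counts for 93128 cells with a table of cell types and clusters. Per the submitters' processing notes, reads were processed with Cell Ranger 1.2.1 on mm10; other steps are not given in the sources used here. Of the cells, 67050 belong to the 6 libraries of the series, and 2 further libraries (26078 cells) were not used. UMI counts as deposited were summed per library and cell type. edgeR 4.0.16 (R 4.3.3) fitted all 6 libraries per class (quasi-likelihood, TMM, filterByExpr, Benjamini-Hochberg over all genes tested), and all 30 sums with library as a term for steps between classes. DESeq2 1.42.0 was an alternative. Log2 ratios used pseudocounts of 0.5 UMIs (classes) or 1 CPM (parts; CPM are UMIs per 1000000 of a sum). The 8% of cells with the highest Scrublet scores in each library (5364 in all) were taken as putative doublets and left out in an alternative only. The other alternatives were other size factors, unscaled totals, no filter, a replicate block, cells under 1000 UMIs or shared barcodes left out, thinning, 4 libraries, and each library left out. Python 3.11.15 was used, and scripts were tested on simulated data. The listed genes and gene lists were chosen with earlier results of these data known. Beside the listed genes, the text names paralogues at 20 CPM or more, the 3 pathway genes with the lowest adjusted p in each direction, and the 3 genes most like each. Gene positions are from GENCODE vM21 and promoters from RefSeq. Deviations of same-numbered replicates had r of 0.04 to 0.29 over genes between the 2 Atoh7-null groups and of -0.10 to 0.05 in the other pairs of groups; the labels do not say what a number marks, so replicates were not paired. Intervals and floors from UMIs cover counting error only.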

Additional observations from a re-analysis of the deposited data

Results flagged for a closer look

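The step between classes differed between double null and Bax null libraries for 12 combinations of gene and step, by a test of the difference itself in edgeR's fit over all 30 sums. From progenitor to neurogenic cell these were Btg2 (1.02 on the log2 scale), Mybl1 (0.59), Insm1 (0.39), Rgs16 (-0.53) and Sstr2 (-1.01). From neurogenic to ganglion cell they were Mybl1 (1.44), Sstr2 (1.31), Insm1 (1.23) and Gadd45a (0.30). From neurogenic cell to cone they were Btg2 (-1.13), Insm1 (-0.99) and Gadd45a (-0.79). Insm1 is the gene called in all 3 steps, with a negative sign in the last. The groups compared also differ in depth and mitochondrial share, and the part of these in the differences was not tested.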

How the results depend on the processing

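Of 930 log2 fold changes recomputed under alternatives, 835 kept their direction and side of the threshold, 37 lost a call, 39 gained one and 19 changed sign; the cause was not tested. The unscaled totals and the shared barcodes were chosen after seeing the data. In double null against Bax null libraries, unscaled totals gave 6 called genes in cones and 5 in horizontal cells, with 0.60 for Gadd45a in neurogenic cells and 0.37 for Btg2 in cones. Without the shared barcodes Gadd45a was at 0.094 in neurogenic cells and 3 genes were called from progenitor to neurogenic cell; thinning to the smallest class total left 2. Gadd45a was at 0.0016 with only the 4 libraries compared, and DESeq2 called 1 gene in horizontal cells, with no adjusted p for Penk in cones. With putative doublets left out, Btg2 was at -0.052 in progenitors, Rgs16 at -0.016 in cones and Sstr2 at 0.0084 in the step to cones. With the replicate block, Btg2 was at -0.045 in progenitors, and 6 genes were called from progenitor to neurogenic cell and 5 from neurogenic to ganglion cell. Leaving out 1 library at a time gave 3 to 6 called genes in progenitors, 1 to 6 in horizontal cells and 3 to 5 from progenitor to neurogenic cell. Over these, Btg2 ran from -0.45 to 0.35 in progenitors and from -0.47 to 0.45 in horizontal cells, and Gadd45a from -0.29 to 0.21 in neurogenic cells. In cones Rgs16 ran from -0.14 to 0.30 and Insm1 from -0.41 to 0.39, Penk from -0.51 to 0.59 from progenitor to neurogenic cell, and Rgs16 from -0.86 to 0.016 in the step to cones. Against Bax het Atoh7 null libraries, no filter on low counts gave 1 called gene in neurogenic cells, cones and horizontal cells, and leaving out 1 library gave 0 to 1 in each of the 5 classes; the replicate block called 0 in each, although same-numbered libraries of these 2 groups deviated together in progenitors (r 0.29), neurogenic cells (0.22) and ganglion cells (0.15).

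Counts over all genes ranged more widely. In double null against Bax null libraries they were 7222 in progenitors (4892 to 9823 over alternatives), 5518 in neurogenic cells (3663 to 7880), 5580 in ganglion cells (3974 to 7421), 2649 in cones (1212 to 4649) and 2617 in horizontal cells (1209 to 4488). For the steps they were 782 (244 to 921), 2001 (1100 to 2078) and 681 (314 to 754). Against Bax het Atoh7 null libraries they were 269 (2 to 655), 206 (7 to 517), 248 (73 to 433), 138 (62 to 294) and 144 (18 to 267) by class. Of 280 ratios between classes 2 moved by more than 1 SD, to 4.35 for Gadd45a and 2.51 for Insm1 from progenitor to neurogenic cell with putative doublets left out. Of 70 shares of cells with a UMI, 52 moved by more than 1 SD without thinning or at 1500 UMIs per cell, where more UMIs of each cell are counted. Depth limits Penk most, with 2 to 19 UMIs per library in ganglion cells, cones and horizontal cells.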
